A study of Mus musculus with 12 samples.

Results

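The genes described here are the mouse Zfp genes whose symbol is Zfp followed by 3 digits and at most 1 letter, 228 of the 12516 genes tested. Members were chosen by symbol among probe sets that the platform annotation pairs with a single gene. A probe set had to exceed its array's median on 2 or more of the 12 arrays, and a gene with several such probe sets is represented by the one with the highest mean. Of 286 genes whose symbol matched, 228 were kept, and 58 were not because their probe sets stood above the array median in 0 arrays (46 genes) or in 1 array (12 genes). The level in all 12 arrays therefore chose the members, and that level is given below as a description.

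The animals were JUN inducible mice on a regular diet, and pups received doxycycline through the water their mothers drank. After 2 days, SSC, CSP and Thy osteoprogenitors were purified by flow cytometry from bones of the limbs, skull cap, shoulder blade, spine and ribs, and their total RNA was hybridised to 1 array per sample. The 6 groups of 2 arrays are SSC JUN, SSC -JUN, CSP JUN, CSP -JUN, Thy JUN and Thy -JUN, where -JUN is read as the arm in which JUN was not induced. The series text writes BCSP and Thy+ for CSP and Thy. The sample titles name 5 mice: mice 4 and 7 gave all 6 JUN arrays, mouse 3 gave a -JUN array of each population, mouse 3b gave -JUN arrays of CSP and Thy, and mouse 10 gave a -JUN array of SSC. Each mouse is thus in 1 arm only, and for mice 3 and 7 the titles do not settle that the SSC animal is the CSP and Thy animal. The strain, the exact age, the promoter of the transgene and whether -JUN mice carried it are not stated in the labels used here.

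Most mouse genes named Zfp encode proteins with tandem C2H2 zinc fingers, small folds that hold a zinc ion and read bases of the DNA major groove. The largest class joins the fingers to a KRAB domain, which recruits the corepressor TRIM28 and, through it, the histone methyltransferase SETDB1, heterochromatin proteins and DNA methylation. Many of these genes lie side by side in clusters that arose by duplication, and many of their proteins bind retrotransposons. Other Zfp proteins have no KRAB domain and act in cell fate, RNA processing or chromatin complexes. JUN is a subunit of the AP-1 transcription factor, which binds the motif TGANTCA or, in dimers with ATF proteins, TGACGTCA.

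Expression is given as the log2 value of a probe set, and a difference is the mean of the JUN arrays minus the mean of the -JUN arrays of the same population. The Jun probe set stood at 13.18 and 12.13 in SSC JUN against 12.60 and 12.06 in SSC -JUN, at 12.92 and 12.82 in CSP JUN against 13.37 and 13.24 in CSP -JUN, and at 13.03 and 12.90 in Thy JUN against 12.81 and 13.65 in Thy -JUN. Its differences were 0.32, -0.43 and -0.27 in SSC, CSP and Thy, each with a standard error of 0.41, and none passed the test. Whether this probe set reads the transgene is not given, so it does not check the labels of the arms. Thy1, which encodes the surface antigen that the Thy population is named for, stood at 12.80 to 13.30 in the 4 Thy arrays and at 7.28 to 9.63 in the other 8. The 6 chondrocyte marker genes averaged 13.58 in SSC JUN replicate 1, 13.37 in CSP JUN replicate 1 and 13.25 in CSP -JUN replicate 2, and 8.68 to 10.92 in the other 9 arrays. Among blood markers, Ptprc, Cd3e, Itgam, Alas2, Klf1 and Epb42 lay below the array median in all 12 arrays, whereas Csf1r lay above it in 5, S100a8 in 5, S100a9 in 7, Ltf in 5, Camp in 9 and Ngp in 1. Camp, a neutrophil granule gene, stood at 9.36 and 9.17 in Thy JUN against 7.73 and 8.73 in Thy -JUN. The poly-A control probe sets, which read added bacterial RNA, averaged 11.24 and 9.95 in SSC JUN against 8.47 and 9.11 in SSC -JUN, 11.31 and 11.77 in CSP JUN against 9.95 and 10.82 in CSP -JUN, and 12.28 and 11.34 in Thy JUN against 11.91 and 11.33 in Thy -JUN. In SSC and CSP the arms did not overlap on these controls.

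The probe sets of the Zfp genes had mean log2 values between 6.44 and 13.12, with a median of 8.80 and an interquartile range of 8.10 to 9.65. The 5 probe sets of highest mean were those of Zfp622, a factor of large ribosomal subunit maturation (13.12), of the promoter-binding factor Zfp148 (11.88), of Zfp521 (11.79), of Zfp266 (11.60) and of Zfp423 (11.49), and since probe sets differ in affinity these values do not rank the transcripts. In 120 genes the probe set was above the array median in all 12 arrays, and in 12 genes in only 2. Just inside the rule were Zfp974, Zfp759 and Zfp418, each above the median in 2 arrays, with means of 6.44, 6.64 and 6.77. Just outside were Zfp169, Zfp846 and Zfp982, each above it in 1 array, with means of 7.33, 7.17 and 7.11. A Zfp gene's values spanned a median range of 1.88 over the 12 arrays. The narrowest range was 0.458, in Zfp689, whose values lay between 8.67 and 9.13, and the widest was 6.50, in Zfp995, whose values lay between 4.83 and 11.32.

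By the median over the Zfp genes, the arms overlapped in all 3 populations. The median over the 228 genes was 8.66 and 9.03 in SSC JUN against 8.85 and 8.95 in SSC -JUN. It was 8.77 and 8.88 in CSP JUN against 9.07 and 8.69 in CSP -JUN, and 8.65 and 8.87 in Thy JUN against 8.85 and 8.75 in Thy -JUN. The lowest medians were those of Thy JUN replicate 1 and SSC JUN replicate 1, both from mouse 4, and the highest was that of CSP -JUN replicate 1 from mouse 3. The group means of these medians were 8.85 ± 0.26 in SSC JUN and 8.90 ± 0.07 in SSC -JUN, 8.83 ± 0.08 in CSP JUN and 8.88 ± 0.27 in CSP -JUN, and 8.76 ± 0.15 in Thy JUN and 8.80 ± 0.07 in Thy -JUN (SD, n = 2 each). The pooled standard deviation within groups was 0.17, larger than each of the 3 gaps between arms. By the mean over the Zfp genes the SSC arms did not overlap, with 8.55 and 9.02 in SSC JUN against 9.03 and 9.12 in SSC -JUN. The mean was 8.88 and 8.82 in CSP JUN against 9.17 and 8.78 in CSP -JUN, and 8.51 and 8.91 in Thy JUN against 8.95 and 8.82 in Thy -JUN, where the arms overlapped.

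**Figure D1:**
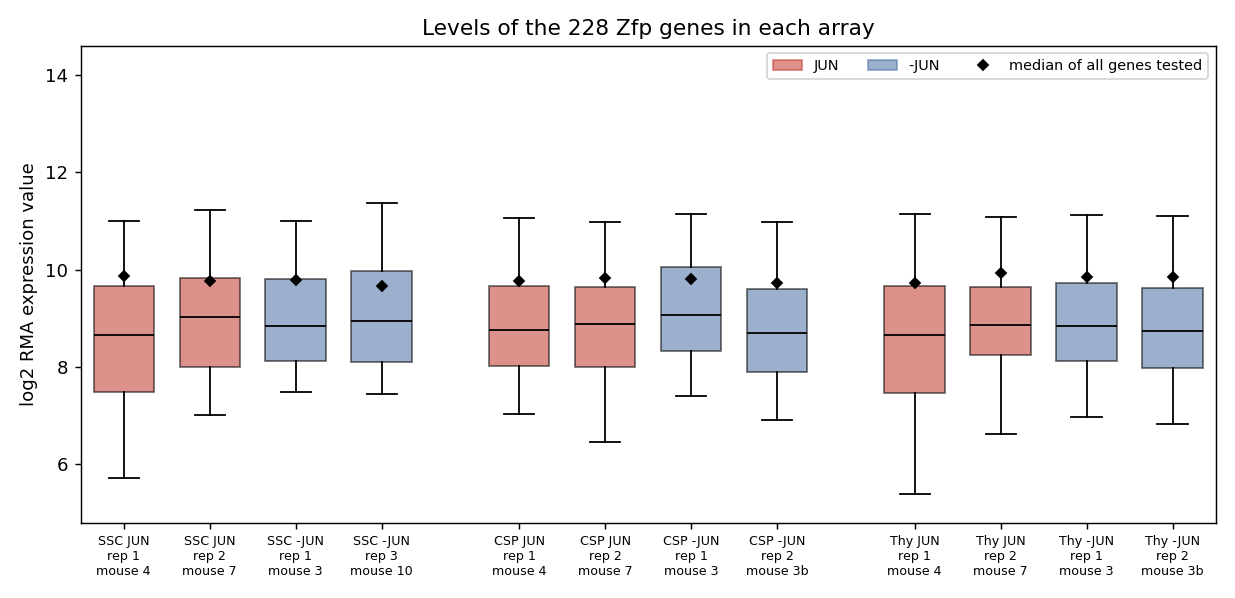
Log2 expression values of the 228 Zfp genes in each of the 12 arrays, JUN arrays in red and -JUN arrays in blue; boxes span the interquartile range with the median as a line, whiskers reach the 5th and 95th percentiles, and diamonds mark the median of all 12516 genes tested. The boxes of JUN and -JUN arrays overlap in every population, and the medians lie between 8.65 and 9.07.

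Gene by gene, the Zfp differences lay somewhat below those of all genes tested, most in SSC. In SSC the median Zfp difference was -0.26 and that of all 12516 genes 0.08, and 139 Zfp genes (61.0%) had a difference below 0, against 43.7% of all genes. In CSP the medians were -0.08 over the Zfp genes and 0.07 over all genes, with 128 Zfp genes (56.1%) below 0 against 43% of all genes. In Thy they were -0.04 and 0.04, with 120 Zfp genes (52.6%) below 0 against 46.4%. Averaged over the populations the medians were -0.15 and 0.07, with 144 Zfp genes (63.2%) below 0 against 42.9%. These shares describe a list that was chosen with earlier results of the same arrays known, and the list itself was not tested. In all 3 populations alike, 73 Zfp genes (32.0%) had a difference below 0, against 20.9% of all genes, and 47 (20.6%) had one above 0, against 30.9%, while 108 were of mixed sign. Differences of over 1 in size were found in 41 Zfp genes in SSC (18.0%, against 8.5% of all genes), 15 in CSP (6.58%, against 2.57%), 36 in Thy (15.8%, against 4.87%) and 17 for the average (7.46%, against 1.56%). Such differences thus made up a larger share of the Zfp genes than of the whole table in all 4 comparisons. This did not hold at every level. In the 76 Zfp genes of highest mean value the share was 6.58% in SSC, against 7.32% of other genes at those levels. It was 1.32% against 1.34% in CSP, 6.58% against 2.90% in Thy and 2.63% against 0.97% for the average.

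**Figure D2:**
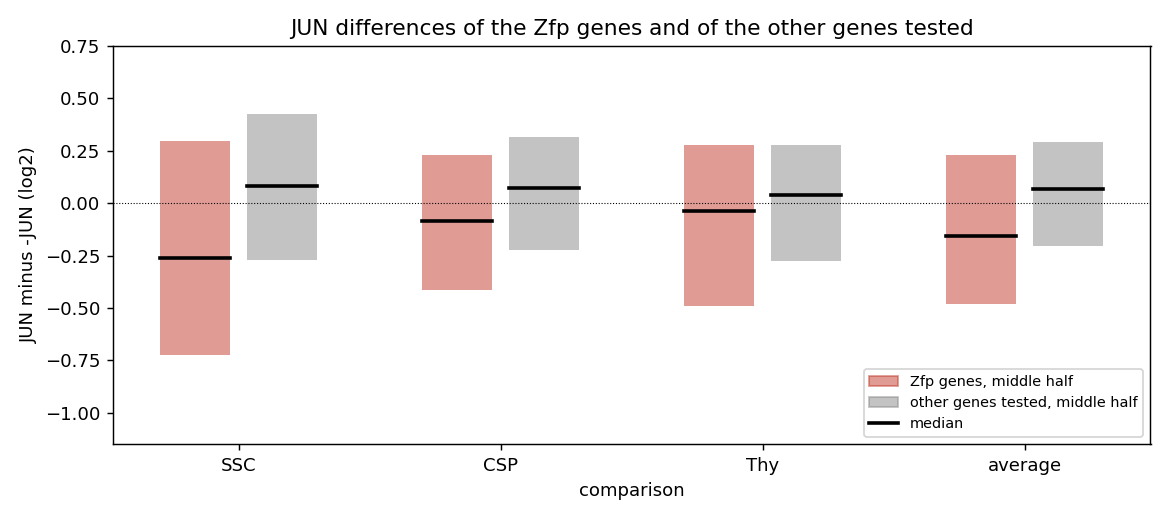
JUN minus -JUN differences (log2) in SSC, CSP, Thy and their average; bars span the interquartile range over the 228 Zfp genes (red, left of each pair) or over the other genes tested (grey), and black lines mark the medians. The Zfp median is below 0 in each comparison, at -0.26 in SSC and -0.04 in Thy, and its bar overlaps the grey one throughout.

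The shift in SSC depended on 1 array. The titles of the other 3 SSC arrays carry a date, the same for all 3, and that of SSC JUN replicate 1 from mouse 4 carries none; what the date marks is not stated. Among the dated arrays alone, that is without SSC JUN replicate 1, the SSC median was 0.02, and over all leave-outs of 1 array or 1 mouse it ranged from -0.27 to 0.02. In CSP the median ranged from -0.31 without CSP -JUN replicate 2 (mouse 3b) to 0.09 without CSP -JUN replicate 1 (mouse 3). In Thy it ranged from -0.16 without Thy JUN replicate 2 (mouse 7) to 0.04 without Thy JUN replicate 1 (mouse 4). The average stayed below 0 in every leave-out, between -0.26 without mouse 7 and -0.05 without mouse 4. With the poly-A control level as a covariate the medians were 0.24 in SSC, 0.13 in CSP, -0.01 in Thy and 0.14 for the average, against 0.11, 0.06, 0.03 and 0.06 over all genes. The chondrocyte markers averaged 13.58 and 10.36 in SSC JUN against 10.92 and 9.84 in SSC -JUN, highest in the array of mouse 4, and 13.37 and 10.63 in CSP JUN against 10.12 and 13.25 in CSP -JUN. The 6 adipocyte and reticular stromal markers averaged 9.66 and 10.88 in SSC JUN against 11.18 and 11.56 in SSC -JUN, 10.58 and 10.19 in CSP JUN against 10.76 and 10.41 in CSP -JUN, and 9.54 and 10.18 in Thy JUN against 10.41 and 10.24 in Thy -JUN. These averages did not overlap between the arms in SSC and Thy. Lepr ran the other way in Thy, at 9.29 and 9.07 in Thy JUN against 8.85 and 9.03 in Thy -JUN. Of the 6 markers Adipoq alone lay below the array median in any array. The 5 osteoblast markers averaged 12.66 and 11.28 in SSC JUN against 11.25 and 11.05 in SSC -JUN, apart only just at the nearest pair. Of these genes Col1a1 alone had its SSC arms apart, and those of Ibsp, Sp7, Alpl and Dmp1 overlapped. Ibsp stood at 12.77 and 12.44 in SSC JUN against 12.72 and 12.98 in SSC -JUN. The SSC arms were also apart for 3 other averages, given as JUN against -JUN. Neutrophil markers had 7.30 and 6.98 against 6.77 and 6.65, and endothelial ones 7.33 and 7.18 against 7.73 and 7.52. Erythroid markers had 6.52 and 6.53 against 6.85 and 6.64. Single genes of these 3 lists did not all follow. The SSC arms of S100a8 and Ltf, of Cdh5, Tek and Tie1, and of Alas2 and Klf1 overlapped. Of the endothelial genes only Pecam1 and Emcn were apart, and of the erythroid genes only Epb42. The part of these markers in the Zfp shift was not tested, and in sorted bulk samples fewer cells of a type and less RNA per cell cannot be told apart.

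**Figure D3:**
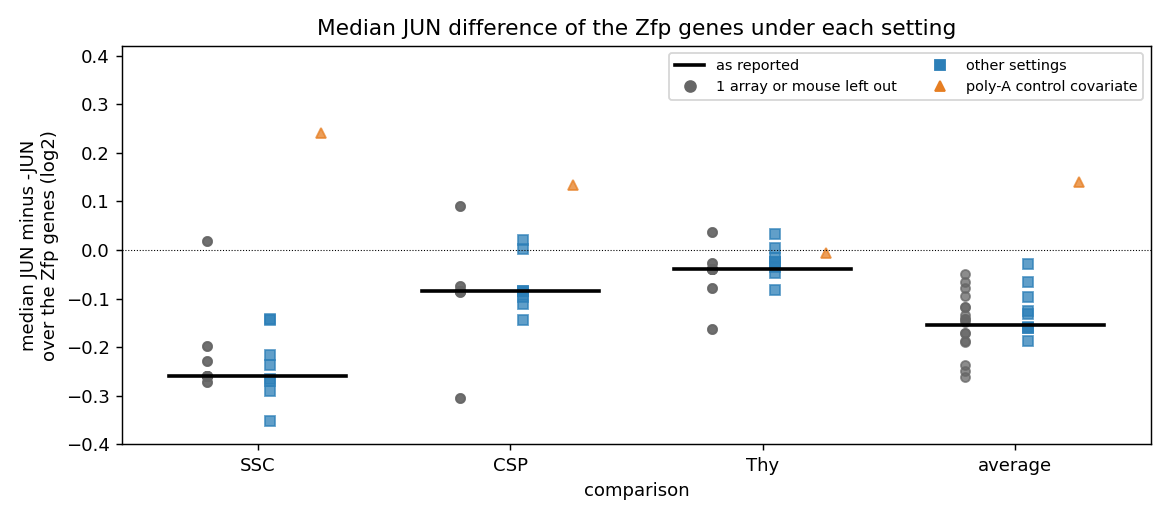
Median JUN minus -JUN difference (log2) over the Zfp genes in SSC, CSP, Thy and their average under each setting; the black line is the value as reported, grey circles leave out 1 array or mouse, blue squares are other settings and orange triangles add the poly-A control level as a covariate. In SSC the circles reach from -0.27 to 0.02 and the triangle stands at 0.24.

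In all 6 groups the replicates differed by over 1 in a larger share of the Zfp genes than of all genes. The 2 SSC JUN arrays differed by over 1 in 34.6% of the Zfp genes, against 20.4% of all genes, and the 2 Thy JUN arrays did so in 30.7%, against 20.8%. In CSP -JUN, the median difference of mouse 3b minus mouse 3 was -0.40 over the Zfp genes, of which 69 were higher in mouse 3b, and -0.01 over all genes. That gap between replicates is larger in size than the median JUN difference of each population. Thy JUN replicate 1 held the lowest of the 12 values for 60 Zfp genes (26.3%, against 19.9% of all genes), SSC -JUN replicate 3 for 45 (19.7%, against 25.1%) and SSC JUN replicate 1 for 36 (15.8%, against 8.33%). Thy JUN replicate 1 also held the highest value for 45 of the 228 Zfp genes, against 22.3% of all genes. SSC -JUN replicate 3 held it for 53, against 13.4% of all genes. The Zfp share was below that of all genes in the first array and above it in the second.

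No Zfp gene passed the threshold of 0.05 for JUN in any population, and neither did any other gene (0% of 12516 in SSC, CSP, Thy and the average). The lowest adjusted p among the Zfp genes was 0.690 in SSC, 0.995 in CSP, 0.647 in Thy and 0.396 for the average (limma, Benjamini-Hochberg over all genes). At an unadjusted p under 0.05, 9 Zfp genes were lower and 7 higher in SSC JUN, where 1.92% and 4.58% of all genes were. In CSP the counts were 6 lower (0.855% of all genes) and 4 higher (1.45%), in Thy 10 lower (1.59%) and 4 higher (1.45%), and for the average 22 lower (4.68%) and 12 higher (7.85%). Counting genes whose JUN arrays do not overlap the -JUN arrays, 42 Zfp genes were lower and 35 higher in SSC (15.7% and 22.7% of all genes), 35 lower and 28 higher in CSP (11.9% and 19.3%), and 34 lower and 40 higher in Thy (10.8% and 17.9%). Without mouse 7, mouse 4 is the only JUN animal, and the spread within the JUN arm is not measured. Counts past the threshold from that fit are therefore not read as effects of JUN. They are listed only with the processing alternatives below.

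In SSC, the Zfp genes of lowest p among those whose arms did not overlap were Zfp874a, Zfp719, Zfp963, Zfp948 and Zfp810 on the lower side. Zfp874a stood at 7.90 and 8.77 in SSC JUN against 9.82 and 10.35 in SSC -JUN, a difference of -1.75 ± 0.42 (SE). Both JUN arrays lay below both -JUN arrays, and the same held in Thy, with 8.40 and 8.37 in Thy JUN against 9.82 and 9.47 in Thy -JUN. In CSP its arms overlapped, with 9.77 and 8.85 in CSP JUN against 9.55 and 10.15 in CSP -JUN. Zfp719 stood at 6.98 and 6.91 in SSC JUN against 8.34 and 9.09 in SSC -JUN, a difference of -1.77 ± 0.46. Zfp963 stood at 8.09 and 7.69 in SSC JUN against 9.11 and 9.38 in SSC -JUN. For these 3 genes both JUN mice were low, whereas Zfp948 and Zfp810 were lowest in mouse 4. Zfp948 had 6.61 and 8.70 in SSC JUN against 9.46 and 10.89 in SSC -JUN, and Zfp810 had 5.93 and 8.23 in SSC JUN against 8.37 and 9.83 in SSC -JUN. Without SSC JUN replicate 1 their differences of -2.52 and -2.02 were -1.48 and -0.87.

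On the higher side in SSC were Zfp536, a repressor of neuronal differentiation, Zfp335, a component of histone H3 lysine methyltransferase complexes, Zfp276, Zfp428 and Zfp703, a corepressor of the NET family. Zfp536 stood at 9.08 and 8.50 in SSC JUN against 6.73 and 7.54 in SSC -JUN, a difference of 1.65 ± 0.47. Zfp335 stood at 9.48 and 8.85 in SSC JUN against 8.19 and 7.91 in SSC -JUN, a difference of 1.11 ± 0.34. Zfp276 stood at 10.83 and 10.07 in SSC JUN against 9.46 and 9.04 in SSC -JUN, a difference of 1.20 ± 0.39. The arms were apart in each, and mouse 4 gave the higher JUN value each time. With the poly-A covariate the 3 differences were 0.87, 0.50 and 0.42, all of the same sign as without it.

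In CSP the genes of lowest p on the lower side were Zfp934, Zfp105, Zfp658, Zfp420 and Zfp930. Zfp934 stood at 7.91 and 7.55 in CSP JUN against 8.78 and 9.14 in CSP -JUN, a difference of -1.23 ± 0.30. Zfp105 stood at 7.09 and 6.14 in CSP JUN against 8.92 and 8.59 in CSP -JUN, a difference of -2.14 ± 0.57. The arms were apart in both genes, and Zfp105 had its 2 lowest values of all 12 arrays in CSP JUN. Zfp658 stood at 6.29 and 6.46 in CSP JUN against 8.13 and 7.56 in CSP -JUN, a difference of -1.47 ± 0.47. On the higher side were Zfp579, Zfp949, Zfp207, Zfp524 and Zfp580. Zfp579 stood at 8.76 and 9.09 in CSP JUN against 8.09 and 7.23 in CSP -JUN, a difference of 1.27 ± 0.44, which was 0.84 without CSP -JUN replicate 2. Zfp207, which encodes a spindle and kinetochore factor, had 11.48 and 10.94 in CSP JUN against 10.63 and 10.32 in CSP -JUN, but its other 4 probe sets ran the opposite way, with differences between -0.44 and -1.28, and the mean of its 5 probe sets gave -0.68.

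In Thy the lower side was led by Zfp418, Zfp329, Zfp930, Zfp719 and Zfp667. Zfp418 stood at 5.29 and 4.82 in Thy JUN against 8.15 and 8.39 in Thy -JUN, a difference of -3.21 ± 0.56 and the lowest adjusted p of the family in any population (0.647, limma). It is one of the 12 genes above the array median in only 2 arrays, and those are the 2 Thy -JUN arrays, so that without them it would not have been a member. Zfp329 stood at 5.37 and 6.40 in Thy JUN against 8.09 and 8.74 in Thy -JUN, a difference of -2.53 ± 0.53. Zfp930 stood at 5.13 and 4.67 in Thy JUN against 8.38 and 7.83 in Thy -JUN, a difference of -3.20 ± 0.80. In each of the 3 genes the arms lay more than 1 log2 unit apart. The higher side was led by Zfp956, Zfp579, Zfp949, Zfp444 and Zfp710. Zfp956 stood at 8.98 and 8.70 in Thy JUN against 7.46 and 7.93 in Thy -JUN, a difference of 1.14 ± 0.38. Zfp579 had 9.02 and 9.12 in Thy JUN against 7.34 and 8.66 in Thy -JUN, and its difference of 1.07 was 0.41 without Thy -JUN replicate 1.

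**Figure D4:**
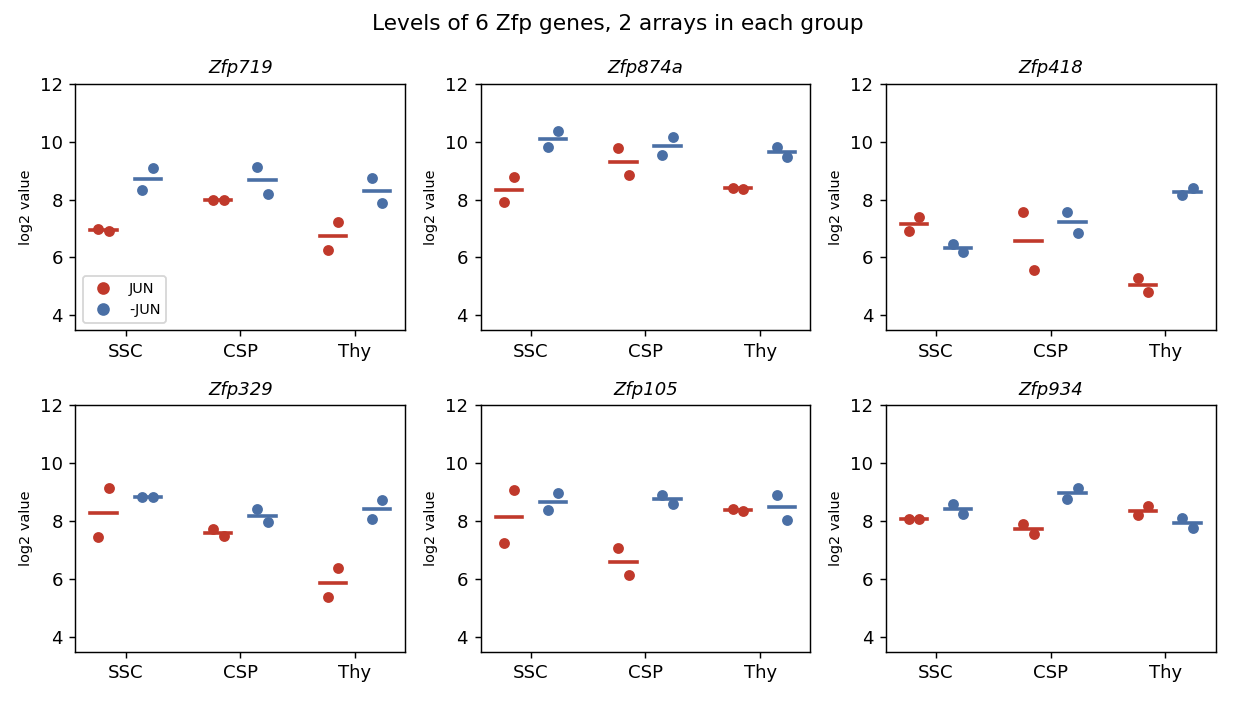
Log2 expression values of Zfp719, Zfp874a, Zfp418, Zfp329, Zfp105 and Zfp934 in SSC, CSP and Thy; points are single arrays, short lines are means of 2 arrays, with JUN (red) left of -JUN (blue). The widest gap is that of Zfp418 in Thy (5.29 and 4.82 in Thy JUN against 8.15 and 8.39 in Thy -JUN), and Zfp719 is lower in JUN in all 3 populations.

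Across the 3 populations, 5 Zfp genes kept their arms apart once each population's mean was subtracted, 3 lower (0.296% of all genes) and 2 higher (1.63%). These were Zfp719, Zfp882 and Zfp521 on the lower side and Zfp579 and Zfp768 on the higher side. Zfp719 had average difference -1.34 ± 0.27, with 7.98 and 7.98 in CSP JUN against 9.11 and 8.21 in CSP -JUN, and 6.26 and 7.22 in Thy JUN against 8.75 and 7.86 in Thy -JUN. Every JUN array was thus below every -JUN array of its population. Zfp579 had average difference 0.99 ± 0.26, Zfp882 -0.78 ± 0.27, Zfp768 0.47 ± 0.17 and Zfp521 -0.33 ± 0.16. Leaving out 1 array or mouse moved the average of Zfp882 between -1.13 (without mouse 3b) and -0.44 (without mouse 3). All 5 missed the threshold, with adjusted p of 0.396 or 0.403 (limma). With 2 JUN mice in all 3 populations, these arrays are not independent animals.

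Whether the JUN difference itself varied between populations was tested by a moderated F test, in which 0 Zfp genes passed (0% of all genes) and 5 had an unadjusted p under 0.05 (1.15% of all genes). The 4 of lowest p were Zfp418, Zfp934, Zfp536 and Zfp949, each with adjusted p 0.9997 (limma). Zfp418 had differences of 0.83, -0.64 and -3.21 in SSC, CSP and Thy, Zfp934 of -0.34, -1.23 and 0.42, Zfp536 of 1.65, 0.11 and -0.79, and Zfp949 of -0.75, 1.05 and 0.88. The signs were mixed in all 4, and the Thy value of Zfp949 was -0.08 when its probe sets were averaged.

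Few Zfp genes passed the test between populations. SSC against CSP gave 0 Zfp genes past the threshold (0.431% of all genes) and 10 at an unadjusted p under 0.05 (6.51%), and SSC against Thy gave 0 (0.391%) and 36 (17.7%). CSP against Thy gave 1 (0.991%), Zfp536, and 24 at an unadjusted p under 0.05 (12%). Zfp536 stood at 5.39, 6.69, 5.96 and 5.91 in CSP against 7.64, 7.997, 8.93 and 8.30 in Thy, a difference of -2.23 ± 0.46 (adjusted p = 0.0446, limma). The 4 CSP values all lay below the 4 Thy values, and also below the medians of their arrays (7.66 to 7.73). The SSC values of 9.08, 8.50, 6.73 and 7.54 lay above those of CSP too, with an adjusted p of 0.147 (limma). The difference kept its sign in every alternative that tested the gene, between -2.54 and -1.61. Its adjusted p was above 0.05 in most of them (limma), among others without any 1 of the CSP arrays.

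By role, the regulators of mesenchymal and other cell lineages (9 of 10 listed were measured) gave 0 genes past the threshold in any JUN comparison, and 6 of 9 differences were below 0 in SSC, 6 in CSP and 3 in Thy. Zfp521, which in mouse restrains osteoblast and adipocyte programmes, was among the steadiest: 11.64 and 11.90 in SSC JUN against 12.01 and 12.03 in SSC -JUN, 11.87 and 11.44 in CSP JUN against 12.13 and 11.92 in CSP -JUN, and 11.40 and 11.50 in Thy JUN against 11.69 and 11.95 in Thy -JUN. Its arms did not overlap in any population, and the differences of -0.26, -0.37 and -0.37 were small beside those of the genes above. Zfp423, a determinant of preadipocytes, had differences of 0.03, -0.74 and 0.07 in SSC, CSP and Thy. Zfp467, which in mouse shifts marrow stroma toward fat, had -0.32, 0.05 and 0.20, and Zfp503 had 0.33, 0.47 and 0.59. The lineage regulators thus include members of either sign.

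Of the listed silencers of retroviral elements and imprinted loci, 7 of 10 were measured, 0 passed, and 6, 6 and 4 of 7 had differences below 0 in SSC, CSP and Thy. Zfp809, which silences murine leukaemia virus type elements, stood at 8.87 and 9.29 in SSC JUN against 9.74 and 10.31 in SSC -JUN, and its differences were -0.94, -0.44 and -0.18. Zfp932, which binds endogenous retroviruses, had differences of -0.68, -0.96 and -0.67. Zfp445, which maintains imprinting marks, had -0.22, -0.33 and -0.63, and Zfp568, a repressor of a placental Igf2 transcript, had -0.27, -0.05 and 0.20. Zfp819 ran the other way in SSC and Thy, with 0.73 and 0.77, and had -0.31 in CSP. The medians over these 7 genes were -0.34, -0.33 and -0.18.

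Among factors of RNA and translation (10 of 11 measured, 0 passed), the medians were -0.02 in SSC, -0.24 in CSP and 0.04 in Thy. Zfp326, part of a complex that couples elongation to splicing, had -1.33, -1.12 and -0.33, with 7.44 and 9.26 in SSC JUN against 9.41 and 9.95 in SSC -JUN. The ribosome maturation factor Zfp622 had -0.33, -0.14 and -0.13, and Zfp598, a sensor of collided ribosomes, had 0.32, -0.22 and 0.24. Among chromatin and promoter factors (12 of 14 measured, 0 passed), the medians were -0.14, -0.17 and -0.15. Zfp335 and Zfp687 were above 0 in all 3 populations, and Zfp131, Zfp148, Zfp281, Zfp410 and Zfp644 were below 0 in all 3. For Zfp281, which interacts with the NuRD complex, the differences were -0.68, -0.73 and -0.15. The split of signs runs through each of these role lists.

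The corepressor pathway through which KRAB zinc finger proteins act gave no common direction either. Of 35 listed TRIM28, SETDB1, NuRD, HUSH and heterochromatin genes, 31 were tested and 0 passed in any JUN comparison. The median difference was -0.00 in SSC (16 of 31 below 0), -0.01 in CSP (16 below 0) and 0.07 in Thy (14 below 0). Trim28 itself had 0.48, 0.22 and 0.28, and Setdb1 had 0.63, 0.42 and 0.49. Mta2, a NuRD subunit, stood at 10.45 and 10.03 in SSC JUN against 9.17 and 9.18 in SSC -JUN, and Uhrf1, which maintains DNA methylation, stood at 11.18 and 11.93 in CSP JUN against 10.45 and 10.62 in CSP -JUN. H3f3a, which encodes the replication-independent histone H3.3, was lower in CSP, at 7.49 and 7.54 in CSP JUN against 8.82 and 8.61 in CSP -JUN. Its average difference was -0.63, and its probe set had a mean of 8.21. In the populations shown the arms did not overlap, but those of H3f3a overlapped in SSC and Thy and those of Uhrf1 in Thy. The adjusted p for the average was 0.396 in each of Mta2, Uhrf1, H3f3a and Setdb1, the 4 of lowest p (limma). Zinc finger genes with related symbols (Zfp with 1 or 2 digits, Zkscan and Zscan, 47 of 63 tested) gave 0 genes past the threshold and had a median of -0.25 in SSC, against -0.11 in CSP and -0.21 in Thy. Of these, Zscan26 had -0.93, -0.61 and -0.53 and Zkscan1 had -0.65, -0.52 and -0.21 in SSC, CSP and Thy.

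The shift in SSC was uneven over the range of signal. In the 76 Zfp genes of lowest mean value (6.44 to 8.31), the SSC median was -0.46 and 57 were below 0, while the 2598 other genes at those levels had a median of 0.06. In the middle 76 the SSC median was -0.06, against 0.12 in the 2065 other genes at those levels. In the 76 of highest mean value it was -0.18, against 0.09 in 7079 other genes. In CSP the 3 medians were -0.10, 0.03 and -0.14, and in Thy -0.10, -0.02 and -0.02.

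The members were also described by their position in the genome. Of the 228 genes, 227 were placed in the order of protein-coding genes of the RefSeq annotation of GRCm38.p6, with 56 on chromosome 7 and 24 on chromosome 17. Runs of at least 3 members with at most 5 protein-coding genes between neighbours gave 14 clusters with 73 members, and 155 members lay outside them. In SSC, 49 of the 73 clustered genes (67.1%) and 90 of the 155 others (58.1%) had a difference below 0. Neighbouring duplicates can share probes, so cluster members are not independent of each other.

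The largest cluster, 10 genes on chromosome 17 in the order Zfp948, Zfp229, Zfp820, Zfp995, Zfp942, Zfp943, Zfp994, Zfp944, Zfp946 and Zfp945, was below 0 in 10 genes in SSC, 9 in CSP and 9 in Thy. Its median level was 6.27 and 9.46 in SSC JUN against 9.14 and 10.30 in SSC -JUN, 9.29 and 8.24 in CSP JUN against 9.25 and 9.21 in CSP -JUN, and 6.62 and 8.74 in Thy JUN against 8.66 and 8.60 in Thy -JUN. The lowest 2 arrays by far were SSC JUN replicate 1 and Thy JUN replicate 1, both from mouse 4, while the CSP array of that mouse lay at 9.29. Mouse 7 lay within the -JUN range in SSC, just above it in Thy and below it in CSP. The median JUN difference of the cluster was -2.23 in SSC, -0.20 in CSP and -1.34 in Thy. Without mouse 4 it was -0.15 in SSC and 0.00 in Thy, against -0.68 in CSP. With the poly-A covariate the 3 medians, in the order SSC, CSP and Thy, were 0.76, 1.01 and -0.99. Zfp943 stood at 4.08 and 9.64 in SSC JUN against 8.59 and 10.27 in SSC -JUN, and at 5.55 and 8.78 in Thy JUN against 8.68 and 8.55 in Thy -JUN. Zfp995 had 6.39 and 10.10 in SSC JUN against 9.95 and 11.32 in SSC -JUN, and 4.83 and 9.81 in Thy JUN against 9.91 and 8.66 in Thy -JUN.

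The same 2 arrays were low for Zfp genes elsewhere. In 9 Zfp genes (3.95%, against 0.783% of all genes), both SSC JUN replicate 1 and Thy JUN replicate 1 lay more than 1 below all other 10 arrays. Besides Zfp943, Zfp995, Zfp942 and Zfp948 of the chromosome 17 cluster, these were Zfp729b, Zfp825, Zfp931, Zfp160 and Zfp958. Zfp729b, on chromosome 13, had 5.50 and 10.34 in SSC JUN against 9.31 and 10.66 in SSC -JUN, and 6.35 and 8.78 in Thy JUN against 8.46 and 9.04 in Thy -JUN. This pattern was looked for after the values of the cluster had been seen. The same 2 arrays were the lowest of the 12 for the adipocyte and reticular stromal markers, which averaged 9.66 and 9.54 there and 10.18 to 11.56 in the other 10. Lpl, a lipase gene of that list, stood at 10.18 and 11.27 in these arrays and at 12.85 to 13.88 in the others. Cxcl12 stood at 11.26 and 10.99 there and at 11.65 or above in the others. Adipoq, Fabp4, Lepr and Pparg did not have these arrays as their lowest 2. Lepr stood at 9.29 in Thy JUN replicate 1, above the 8.85 to 9.07 of the other Thy arrays. The part of these markers in the pattern was not tested.

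A second cluster, 6 genes on chromosome 7 from Zfp628 to Zfp580, was the reverse: 0 of its 6 genes had a difference below 0 in SSC, CSP or Thy. Its median level was 8.73 and 8.54 in SSC JUN against 8.26 and 7.98 in SSC -JUN, 8.22 and 9.07 in CSP JUN against 8.21 and 7.87 in CSP -JUN, and 8.95 and 8.84 in Thy JUN against 8.24 and 8.69 in Thy -JUN. In each population both JUN arrays lay above both -JUN arrays, in CSP only just at the nearest pair. The median JUN difference was 0.52 in SSC and CSP and 0.45 in Thy. It stayed above 0 in every leave-out, between 0.33 and 0.61 in SSC, 0.20 and 1.04 in CSP, and 0.31 and 0.61 in Thy. With the poly-A covariate the medians were 0.17, 0.54 and 0.42. Its members Zfp579, Zfp524 and Zfp580 are among the CSP genes named above.

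Another run on chromosome 7, from Zfp553 to Zfp689, had 1, 0 and 0 of 6 genes below 0 in SSC, CSP and Thy, with medians of 0.54, 0.43 and 0.22. Without mouse 4 its Thy median was -0.04. The run from Zfp790 to Zfp566 on the same chromosome had 6, 5 and 5 of 6 genes below 0, with medians of -0.59, -0.41 and -0.30, and without CSP -JUN replicate 1 its CSP median was 0.06. The run from Zfp930 to Zfp866 on chromosome 8, which holds Zfp963, had 4, 5 and 4 of 5 genes below 0, with medians of -0.46, -0.55 and -0.46, and without mouse 4 its SSC median was 0.29. Genes of 1 chromosome therefore lay on both sides of 0.

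**Figure D5:**
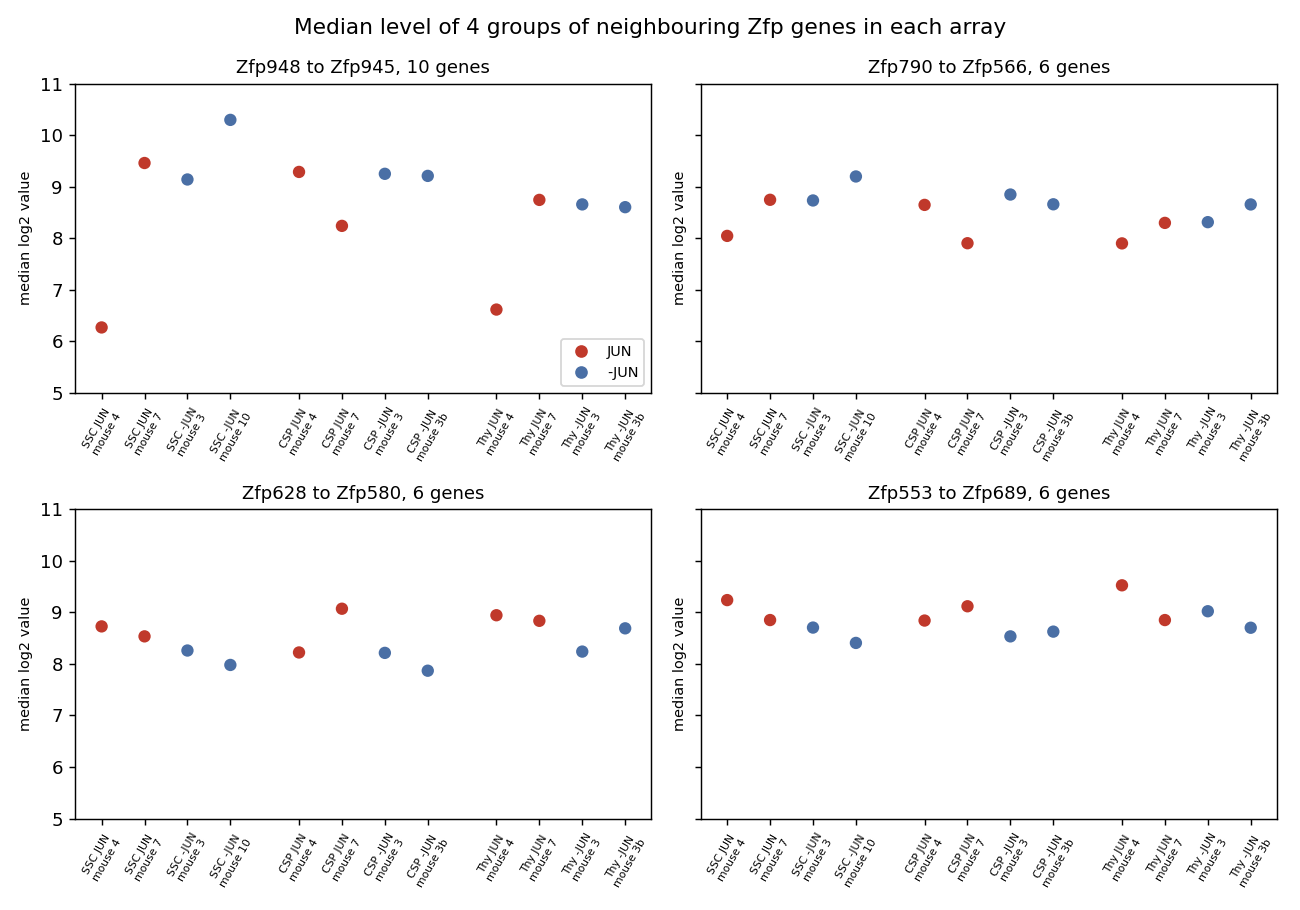
Median log2 value of 4 clusters of neighbouring Zfp genes in each array (chromosome 17 from Zfp948 to Zfp945; chromosome 7 from Zfp790 to Zfp566, from Zfp628 to Zfp580 and from Zfp553 to Zfp689), JUN arrays in red and -JUN arrays in blue, with the mouse named under each point; the vertical axis does not start at 0. The chromosome 17 cluster is at 6.27 and 6.62 in the SSC and Thy arrays of JUN mouse 4 and at 8.24 or above in the other 10 arrays.

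The JUN difference also varied with the base composition of the promoter, most in SSC. A RefSeq promoter window, from 250 bases before to 50 bases after the transcript start on GRCm38.p6, was matched to 188 of the 228 genes. In those with the lowest GC content (at most 53.3%, 64 genes) the SSC median was -0.50 and 50 genes were below 0, and in the middle band (61 genes) it was -0.38 with 42 below 0. In those with the highest GC content (above 62.1%, 63 genes) it was 0.21, with 24 below 0. The other genes tested in the same GC bands had SSC medians of -0.01, 0.11 and 0.12. In CSP the Zfp medians were -0.17, -0.17 and 0.04 from the lowest to the highest band, against 0.08, 0.11 and 0.03 in other genes. In Thy they were -0.16, -0.24 and 0.10, against 0.04, 0.06 and 0.02. For the average over populations the Zfp medians were -0.23, -0.31 and 0.15, against 0.05, 0.10 and 0.06 in other genes. The bands were drawn after the SSC values were known, and their medians were not refitted without SSC JUN replicate 1. Mean promoter GC was 54.3% over the chromosome 17 cluster and 63.4% over the 4 genes with a window in the cluster from Zfp628 to Zfp580. Among the other clusters of at least 5 genes, those with 47.4% to 55.7% GC had SSC medians below 0. Those with 61.8% and 66.6% had SSC medians above 0. The size did not follow GC. The run from Zfp180 to Zfp108 had 49.0% and an SSC median of -0.01. The run from Zfp398 to Zfp467 had the highest mean, 66.6%, and an SSC median of 0.13. Without SSC JUN replicate 1 the run from Zfp759 to Zfp729a (47.4%) had an SSC median of 0.18. That from Zfp930 to Zfp866 (55.7%) then had 0.29. The windows of Zfp948 (chr17:21566728-21567027, + strand, 57.0% GC, 10 CG dinucleotides) and Zfp579 (chr7:4996052-4996351, - strand, 69.0% GC, 12 CG dinucleotides) are shown as an example from each cluster, with CG in capitals.
Zfp948: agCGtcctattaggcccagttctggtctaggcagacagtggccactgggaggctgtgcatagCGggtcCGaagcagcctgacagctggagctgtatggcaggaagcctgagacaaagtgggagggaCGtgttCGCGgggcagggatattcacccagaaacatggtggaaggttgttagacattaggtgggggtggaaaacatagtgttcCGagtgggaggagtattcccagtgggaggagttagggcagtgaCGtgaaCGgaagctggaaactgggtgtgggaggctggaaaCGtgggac
Zfp579: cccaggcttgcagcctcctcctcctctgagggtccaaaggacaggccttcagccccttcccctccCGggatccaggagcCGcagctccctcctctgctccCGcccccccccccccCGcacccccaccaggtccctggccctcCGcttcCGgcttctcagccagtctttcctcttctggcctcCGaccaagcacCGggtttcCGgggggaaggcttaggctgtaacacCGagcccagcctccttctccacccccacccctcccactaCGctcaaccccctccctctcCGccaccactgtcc

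Letters of the AP-1 and ATF motifs were searched for in the same windows, on both strands, and each motif reads as itself on the opposite strand. TGANTCA, with any base at N, was present in the windows of 11 of 188 Zfp genes (5.85%), against 2425 of 27025 genes with a window (8.97%). TGACGTCA was present in 8 (4.26%), against 549 (2.03%), and no Zfp window held both. TGACGTCA itself holds a CG, and the windows had a median of 17 CG dinucleotides in the Zfp genes against 8 over all genes with a window. The shares were not adjusted for this, and the 27025 genes include genes not tested on the arrays. The 11 genes with TGANTCA had median differences of -0.16, -0.22 and 0.03 (SSC, CSP, Thy), and the 177 without it had -0.29, -0.10 and -0.07. The 8 genes with TGACGTCA had -0.15, 0.04 and -0.28. A match describes letters in the window and is not a measured binding site.

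The windows of Zfp874a (chr13:67451575-67451874, - strand) and its neighbour Zfp874b (chr13:67484204-67484503, - strand) both hold TGACGTCA, whose first base is 10 bases before the transcript start in Zfp874a and 12 in Zfp874b, and Zfp329 (chr7:12818811-12819110, - strand) holds TGAGTCA 188 bases before its start. They are shown because Zfp874a and Zfp329 are among the genes of lowest p in SSC and Thy, with the match in capitals.
Zfp874a: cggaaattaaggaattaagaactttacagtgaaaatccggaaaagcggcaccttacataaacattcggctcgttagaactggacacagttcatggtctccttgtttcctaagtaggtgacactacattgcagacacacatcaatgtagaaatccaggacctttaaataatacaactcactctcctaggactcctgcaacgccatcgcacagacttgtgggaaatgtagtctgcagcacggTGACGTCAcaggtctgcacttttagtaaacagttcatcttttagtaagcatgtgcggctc
Zfp874b: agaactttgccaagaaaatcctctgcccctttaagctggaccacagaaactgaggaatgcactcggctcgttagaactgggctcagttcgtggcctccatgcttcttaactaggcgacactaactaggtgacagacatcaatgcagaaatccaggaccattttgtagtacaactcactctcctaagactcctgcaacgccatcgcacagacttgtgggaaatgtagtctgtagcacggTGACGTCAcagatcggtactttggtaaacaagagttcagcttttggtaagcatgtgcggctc
Zfp329: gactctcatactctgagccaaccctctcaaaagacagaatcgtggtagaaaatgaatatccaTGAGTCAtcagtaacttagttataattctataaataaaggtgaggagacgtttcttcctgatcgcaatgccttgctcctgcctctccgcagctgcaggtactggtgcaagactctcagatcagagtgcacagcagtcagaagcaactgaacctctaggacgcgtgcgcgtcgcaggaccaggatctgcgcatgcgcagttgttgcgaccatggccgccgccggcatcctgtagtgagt

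The 2 Zfp874 windows were identical at 241 of 320 aligned columns (75.3%). The genes nevertheless differed in their values: Zfp874a had differences of -1.75, -0.54 and -1.26 in SSC, CSP and Thy, whereas Zfp874b had -0.40, 0.03 and 0.50. Zfp874b stood at 6.76 and 7.92 in SSC JUN against 7.74 and 7.73 in SSC -JUN, and at 8.10 and 8.10 in Thy JUN against 7.999 and 7.19 in Thy -JUN. Its arms overlapped in SSC, and the difference between the 2 genes was not tested.

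Probe sets of 1 gene were a further check on these values. For 100 Zfp genes a second probe set passed the level rule, and its difference had the same sign as that of the chosen one in 72 genes in SSC, 63 in CSP and 67 in Thy. Over all 6072 genes with a second probe set the shares were 73.0%, 67.3% and 67.6%. The median over the second probe sets of the 100 genes was -0.31 in SSC, against -0.23 over the chosen ones.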

How the data were processed

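Total RNA of 12 sorted samples was measured on 12 one-colour arrays of 45101 probe sets, of which 64 are controls. The deposited values are log2 intensities that the authors summarised with RMA, per the submitters' processing notes, and the RMA version is not given in the sources used here. RMA sets all arrays to one distribution, so a shift common to all genes cannot be seen, and probe sets whose probes match several duplicates can mix their signals. Array data carry no read depth, and the number of arrays limits the precision.

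Probe sets were named from the platform annotation: 34945 had 1 symbol, 932 had several and 9160 had none. Probe sets above the array median (of non-control probe sets) in at least 2 arrays were kept, 1 per gene, which left 12516 genes. Differences were fitted with limma 3.58.1 in R 4.3.3 with a mean for each of the 6 groups, the average being the mean of the 3 JUN differences, and a second model with terms for population and arm compared the populations. P-values were adjusted by Benjamini-Hochberg over all 12516 genes, with a threshold of 0.05. The fit was tested on simulated data. P-values measure only the spread between these samples. Genes were named by rule: up to 5 per direction of lowest p among those whose arms do not overlap in a population or the average, the 4 of lowest interaction p, those past the threshold between populations, the 5 of highest mean, the 3 on either side of the level rule, members of the role lists, and the 4 of lowest p for the average from the corepressor list and up to 4 from the related symbols. Genes of clusters, of the motif search and of the list low in mouse 4, and Trim28, were named after their values were seen. The members and lists were chosen with earlier results of these data known. Alternatives left out each array or mouse and changed centring, filters, probe set choice, covariates and blocks.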

Additional observations from a re-analysis of the deposited data

How the results depend on the processing

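The count of Zfp genes past the threshold between CSP and Thy, 1 as reported, was 0 without the filter on dim values. It was also 0 with a covariate for Xist, poly-A or 3' minus 5' controls, and with mouse as a fixed block. With a filter of 6 arrays it was 0 too, but Zfp536, above the array median in 5 arrays, was then not tested. It was 2 with the mean of all probe sets. Shares over all genes are not given for the alternatives of this section, so its counts are not compared with the whole table. Between SSC and CSP, 1 Zfp gene passed with the poly-A covariate. With that covariate the family medians were 0.24 in SSC, 0.13 in CSP and 0.14 for the average. Zfp207 in CSP, 0.73 as reported, was -0.68 with the mean of all probe sets and -1.25 without shared probe sets, and Zfp949 in Thy, 0.88 as reported, was -0.080 with the mean of all probe sets. The average of Zfp52, a related symbol, -1.69 in the model as fitted, was 0.16 with the poly-A covariate; the cause was not tested. When 1 array or mouse was left out, the counts ranged from 0 to 19 for JUN in SSC, 0 to 0 in CSP, 0 to 11 in Thy and 0 to 24 for the average, the highest each time without mouse 7. They ranged from 0 to 1 for SSC against CSP, 0 to 6 for SSC against Thy (6 without SSC JUN replicate 1) and 0 to 2 for CSP against Thy. Family medians ranged from -0.27 to 0.018 in SSC, -0.31 to 0.091 in CSP, -0.16 to 0.04 in Thy and -0.26 to -0.05 for the average. Where 1 array was left in an arm, its spread was taken from the other groups. Without mouse 7 each JUN group holds 1 array, from mouse 4, and the spread between JUN mice is not measured. The highest JUN counts in SSC, Thy and the average come from that fit. They are therefore not read as effects of JUN.

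Replicate numbers name different mice in the JUN and -JUN arms, so no replicate block can pair the arms. With mouse as a random block (correlation -0.0602) the JUN counts remained 0 and that of CSP against Thy 1. Deviations of arrays from the same mouse correlated between -0.21 and 0.43 over all genes and between -0.39 and 0.51 over the Zfp genes. In a group of 2 arrays the deviations mirror each other, so mice 4 and 7 gave the same values. Such a correlation therefore cannot be assigned to 1 mouse.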
